A study of Mus musculus with 7 samples.

Results

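The chemokine ligand genes of the mouse comprise 44 of the 32286 genes in the annotation deposited with this series, and 44 of its 21700 protein-coding genes. They were chosen by name, as protein-coding records whose symbol starts with Ccl, Cxcl, Xcl or Cx3cl and goes on with a digit. The 44 gene identifiers carry 38 symbols. The CC class had 30 identifiers under 24 symbols and the CXC class 12 identifiers under 12 symbols. The other class held Xcl1 and Cx3cl1. The series itself profiled single cells, positive for GFP from Rspo3-GFP transgenic mice (strain C57Bl6, 8 to 12 weeks of age), on the 10x Genomics 3' v3 platform. Untreated small intestine, small intestine of unirradiated control mice and small intestine of mice given 12 Gy gave 2 samples each, and untreated colon gave 1. The design text adds that the stromal cells lacked Epcam and CD45. Expression in these samples was not analysed here, so the markers of the sorted cells could not be checked and no ligand is described as higher or lower in any group. All values below are lengths, counts and positions of gene models on GRCm38, taken from coordinates in bases. They have no replicates and no sampling error, and no test was run on them, since the genes were chosen by name and are not independent replicates.

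Chemokines are small secreted proteins that guide migrating cells along gradients by binding G protein-coupled receptors. Their classes are named for the spacing of the first cysteines of the mature protein, which form disulphide bonds that hold the chemokine fold. In the intestine CCL25 draws lymphocytes to the small bowel, CCL28 draws antibody-secreting cells to mucosae, CCL21 is made by lymphatic endothelium and CXCL12 by stromal fibroblasts. Many ligand genes are known to lie side by side in the genome.

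The class given by each symbol was checked against the coding sequence, since cysteine is encoded by TGT or TGC. For 37 of the 44 genes, all of those on chromosomes, the coding sequence could be read from GENCODE M21 transcripts of the same build. The 7 genes on scaffolds were not searched. The stretches below are 30 bases long and show how the classes differ at this site. Capitals mark the cysteine codons of the first close pair, which was sought from the first codon that reaches into coding exon 2, or the first such codon where there was no pair.
Ccl2: ccactcaccTGCTGCtactcattcaccagc
Ccl25: tttgaagacTGCTGCctgggttaccagcac
Ccl28: gcctccagcTGTTGCactgaggtgtctcat
Cxcl12: agctaccgaTGCcccTGCcggttcttcgag
Cxcl10: acggtccgcTGCaacTGCatccatatcgat
Cx3cl1: atgacgaaaTGCgaaatcatgTGCgacaag
Xcl1: gagagtagcTGTgtgaacttacaaacccag
The stretch of Ccl2, a monocyte attractant, lies at chr11:82036497-82036526 on the plus strand. That of Ccl25 lies at chr8:4353888-4353917 and that of Ccl28 at chr13:119645883-119645912, both on the plus strand. Cxcl12 (chr6:117171499-117171528) and Cx3cl1 (chr8:94778042-94778071) are also read from the plus strand, Cxcl10 (chr5:92348169-92348198) and Xcl1 (chr1:164932957-164932986) from the minus strand. All 7 stretches are coding and each lies within 1 exon.

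Every symbol searched matched its class. The pair was adjacent in 23 of 23 CC genes, against 12.6% of 17629 coding sequences searched the same way. It had 1 codon between in 12 of 12 CXC genes, against 9.96%. Cx3cl1, the membrane-bound ligand also called fractalkine, had 3 codons between its cysteine codons, a spacing found in 10.8% of all sequences. Xcl1, which draws cross-presenting dendritic cells, had no pair with 3 or fewer codons between from coding exon 2 on. The genes were named for these motifs, so the counts check the labels and are not a result about them. In 33 of the 36 genes with a pair, it lay in coding exon 2. The exceptions were Ccl27a, where it lay in coding exon 4, and Ccl6 and Ccl9, where it lay in coding exon 3. The distance from the first coding junction had a median of 8.5 codons and ran from 3 codons in Cxcl14 to 62 in Ccl27a.

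Among the CXC genes, the 3 codons just before the pair differed between ligands. Glutamate, leucine and arginine at this place (the ELR motif) are known to mark ligands that draw neutrophils through CXCR2. The stretches below show a gene of each kind with the platelet genes Ppbp and Pf4. Capitals mark the cysteine codons, and the first 9 bases are the codons in question.
Cxcl1: gagctgcgcTGTcagTGCctgcagaccatg
Cxcl5: gagctgcgtTGTgttTGCttaaccgtaact
Ppbp: gaactgcgcTGCagaTGTacgaataccatc
Pf4: gatcttagcTGTgtgTGTgtgaagaccatc
They lie on the plus strand at chr5:90891487-90891516 (Cxcl1), chr5:90759718-90759747 (Cxcl5), chr5:90769076-90769105 (Ppbp) and chr5:90772935-90772964 (Pf4).
Codons for glutamate, leucine and arginine stood there in 5 of 12 CXC members, namely Cxcl1, Cxcl2, Cxcl3, Cxcl5 and Cxcl15, which are the 5 genes of the CXCR2 ligand list. They were absent at this place in Cxcl9 and Cxcl10, which draw activated T cells through CXCR3, in Cxcl12 and Cxcl13, and in Cxcl14, Cxcl16 and Cxcl17. Over all 17629 coding sequences searched, whatever their spacing, the share was 0.0454%, or 8 genes, the 5 members included. The first close pair had 1 codon between in 1755 of those sequences. Of these 8, Ppbp is a platelet chemokine whose symbol the name rule leaves out, and Fam166b and Kctd9, named after the result was seen, are not chemokine genes. Pf4, the other platelet CXC gene outside the rule, had the CXC spacing without these codons.

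The ligand genes lay on 8 chromosomes and 3 scaffolds. Chromosome 11 had 12 identifiers, of which 11 were CC, and chromosome 5 had 10, of which 8 were CXC. Chromosome 4 had 5 and chromosome 8 had 4. Genes with at most 1000000 bases between neighbours were called a cluster. By this rule 35 of the 44 genes fell into 10 clusters, of which 7 lay on chromosomes with 28 genes and 3 on scaffolds with 7. Between neighbours in a cluster the gap ran from 4933 bases (Cxcl3 to Cxcl15) to 481445 bases (Ccl27a to Ccl21b), with a median of 24478 bases. In 17 of 25 neighbouring pairs no other protein-coding gene lay wholly in between.

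On chromosome 11 the CC genes formed a pair of clusters. The first spanned 270120 bases (82035571 to 82305690) and held, in order, Ccl2, Ccl7, Ccl11, Ccl12, Ccl8 and Ccl1. Its end is that of the gene record of Ccl1, and with the longest protein_coding transcript of each gene it ended at 82179812 and spanned 144242 bases. Its members include all 4 listed ligands of CCR2 (Ccl2, Ccl7, Ccl8 and Ccl12), the receptor by which monocytes are recruited, as well as the eosinophil attractant Ccl11. The second spanned 138906 bases (83525778 to 83664683) with Ccl5, Ccl9, Ccl6, Ccl3 and Ccl4, which draw T cells and myeloid cells. The gap from Ccl1 to Ccl5 was 1220087 bases, just past the limit for joining them.

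On chromosome 5 the CXC genes of the CXCR2 and CXCR3 ligand lists lay in separate groups. The 5 genes of the CXCR2 ligand list lay between 90759360 and 90905938 (146579 bases) in the order Cxcl5, Cxcl3, Cxcl15, Cxcl1 and Cxcl2. Ppbp and Pf4 were the other protein-coding genes inside this stretch, so it also holds CXC genes outside the list. The interferon-induced CXCR3 ligands Cxcl9 and Cxcl10 lay 1415408 bases farther on, within 27543 bases (92321347 to 92348889). Cxcl13, which organises B cell follicles, followed alone after 3608061 bases. On the same chromosome the CC genes Ccl26 and Ccl24 formed a cluster of 12602 bases (135560448 to 135573049). Chromosome 8 held 1 cluster of mixed class, the only one of the 10: Cx3cl1 lay between Ccl22 and Ccl17, which both bind CCR4, within 66447 bases (94745590 to 94812036).

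The longest cluster was that of chromosome 4, with 1004527 bases (41769467 to 42773993). It held the skin ligands Ccl27a and Ccl27b and the CCR7 ligands Ccl21b, Ccl19 and Ccl21a, which lead dendritic cells and T cells into lymph vessels and lymph nodes. It also had 15 other protein-coding genes, among them Il11ra1 and Il11ra2, against 0 to 2 in each of the other clusters on chromosomes. These 15 include Gm21541, Gm13304 and Gm10591, which had the coding sequence of Ccl21b without a difference. They also include Gm13306 and Gm20878, whose transcripts share stretches with that of Ccl27a, as described below. The name rule leaves these genes out, so the count of other genes depends on that rule. Ccl19 and Ccl21a were close neighbours, 16282 bases apart on the minus strand with no coding gene between them. Ccl27a and Ccl21b were joined to the next member over gaps of 481445 and 398425 bases. With a largest gap of 100000 bases they would leave this cluster, so its length and members depend on the limit. The gaps also depend on the name rule, since they were measured between members only. They were not measured with the genes left out by the rule counted in.

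**Figure D1:**
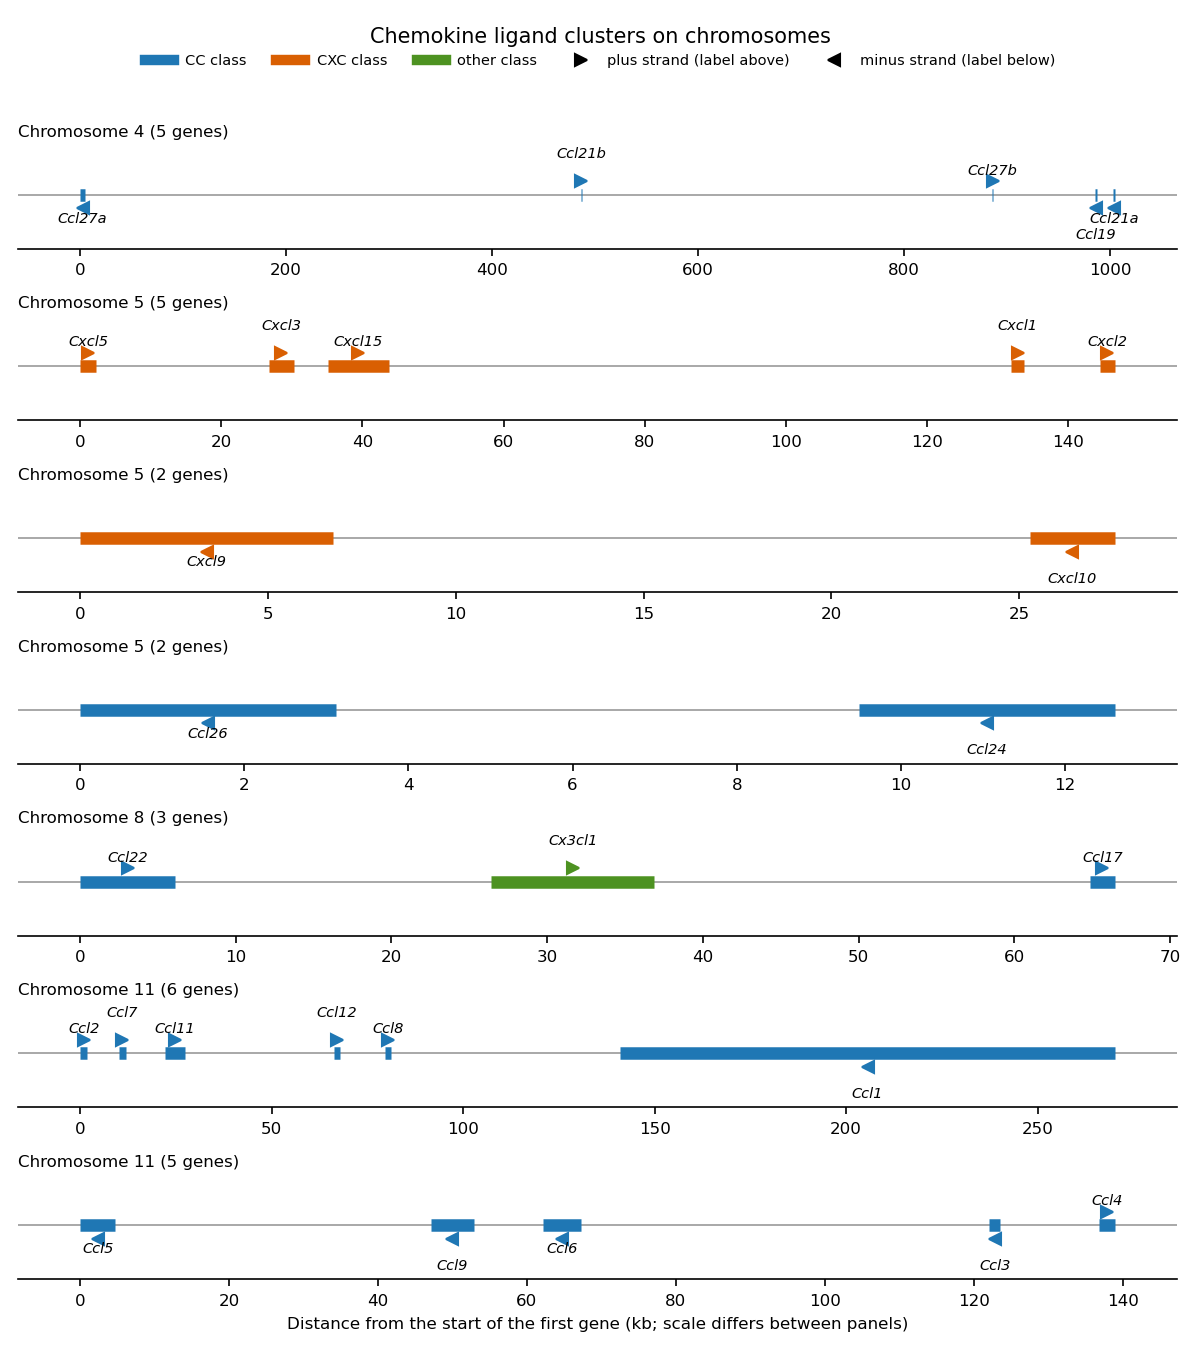
Positions of the ligand genes in the 7 clusters on chromosomes, as distance from the start of the first gene in kb (the scale differs between panels). Bars are gene bodies coloured by class and arrowheads give the strand. All 5 listed CXCR2 ligand genes of chromosome 5 point the same way, and Ccl1 and Ccl4 differ in strand from their neighbours on chromosome 11.

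Neighbouring ligand genes mostly shared a strand. Of 25 neighbouring pairs, 20 lay on the same strand (80%), against 52.1% of 21364 neighbouring pairs of protein-coding genes within the same distance. All 4 pairs of the CXCR2 ligand cluster were on the plus strand, and both pairs of the chromosome 8 cluster were too. Cxcl9 and Cxcl10 were on the minus strand, as were Ccl26 and Ccl24. On chromosome 11 the change of strand came at an edge of each cluster: Ccl1 was the lone minus-strand gene after 5 on the plus strand, and Ccl4 the lone plus-strand gene after 4 on the minus strand. On chromosome 4 the strand changed at 2 of 4 pairs. Over all members, those on scaffolds included, 22 genes lay on each strand. On chromosomes alone 21 lay on the plus and 16 on the minus strand.

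The 9 genes outside clusters were Ccl20, Xcl1, Cxcl13, Cxcl12, Cxcl17, Ccl25, Cxcl16, Cxcl14 and Ccl28. The 3 gut and mucosal ligands were all among them: Ccl20 (chromosome 1, 83116766 to 83119167), Ccl25 (chromosome 8, 4325210 to 4360020) and Ccl28 (chromosome 13, 119623819 to 119654359). Ccl25 lay 90385569 bases from Ccl22, its nearest member on that chromosome. Cxcl12, whose product retains stem cells in their niche, was the 1 member on chromosome 6 (117168535 to 117181367). Cxcl16, a membrane-bound ligand, lay on chromosome 11 but 11575586 bases from Ccl2.

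The exon number differed between the classes, as counted on the longest transcript of type protein_coding. The CC genes had a median of 3 exons, and 18 of 30 had exactly 3 (60%), against 8.83% of all protein-coding genes. The CXC genes had a median of 4, and 9 of 12 had exactly 4 (75%), against 8.72%. Xcl1 and Cx3cl1 had 3 each. Over all protein-coding genes the median was 7. The CC genes with more than 3 exons were 10 with 4 exons, namely Ccl6, Ccl9 and 8 identifiers of Ccl19, Ccl21 and Ccl27a models, then Ccl27a on chromosome 4 with 5 and Ccl25 with 6. Among CXC genes Cxcl16 had 5, and Cxcl2 and Cxcl10 had 3. For Cxcl2 and Cxcl10 the coding transcript with the longest coding sequence had 4 exons, so their departure rests on the choice of transcript.

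The introns cut the reading frame at matching places across classes. In 39 of 44 genes (88.6%) the first coding intron followed the first base of a codon (phase 1) and the second coding intron the second base (phase 2). The same order was found in 10.2% of 16620 protein-coding genes with at least 2 coding introns. By class this held for 26 of 30 CC, 11 of 12 CXC and 2 of 2 other genes. The exceptions were Ccl6, Ccl9, Cxcl17 and 2 of the 3 identifiers of Ccl27a. Ccl6 and Ccl9, neighbours on chromosome 11, each had an additional coding exon after the first, of 48 and 72 bases. Both lengths are multiples of 3, and without that exon the order was phase 1 then phase 2 in both genes. In Ccl27a the last pair of introns had these phases in 3 of 3 identifiers. Cxcl17, a mucosal chemokine, had phase 1 at each of its 3 introns.

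Coding exon 1, which carries the signal peptide in chemokines, held 76 bases in 10 genes. All 10 were CC genes of chromosome 11, out of 11 there; Ccl12 had 73. Coding exon 2 had a median of 118 bases in the CC and 125.5 in the CXC genes. At least 4 coding exons were found in 12 of 30 CC and 10 of 12 CXC genes. In the CXC genes coding exon 4 held 16 bases in Cxcl1, Cxcl3 and Cxcl14 and 408 in Cxcl16. Coding intron 3 of these 10 was in phase 2 in 7, with Cxcl9, Cxcl16 and Cxcl17 as exceptions. Of the 12 CC genes with at least 4 coding exons, 9 had that phase there too, among them all 6 Ccl21 models. The share over all protein-coding genes is not given here.

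**Figure D2:**
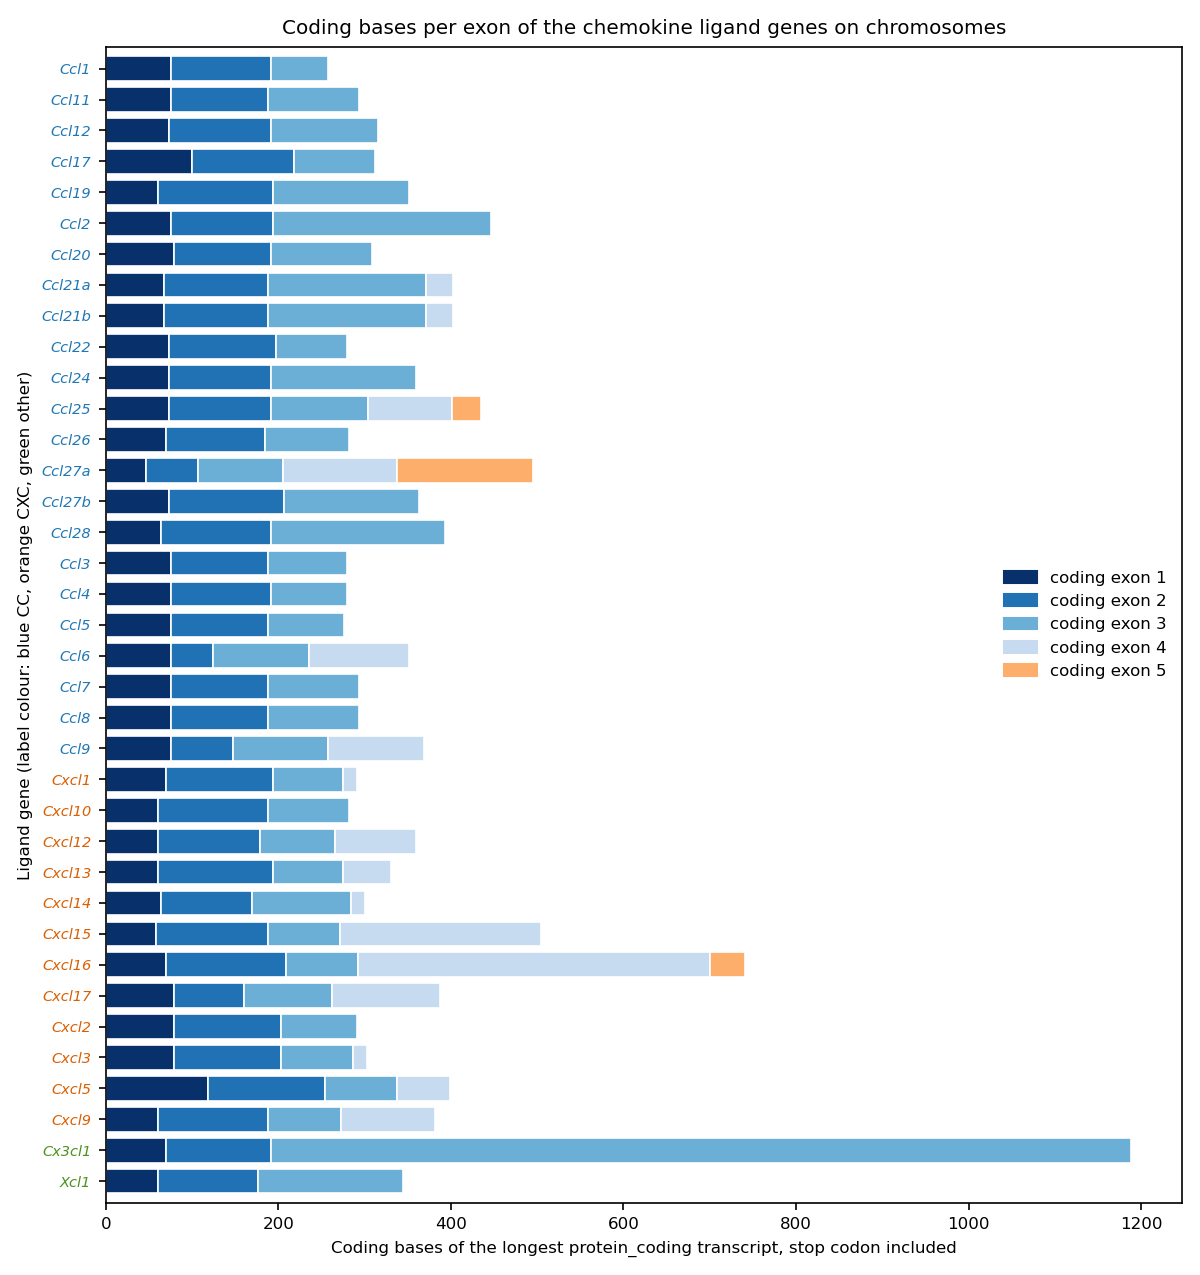
Coding bases per exon (x axis, stop codon included) in the 37 ligand genes on chromosomes, each bar 1 gene and each shade 1 coding exon; label colours give the class. The second block starts at 76 bases in 10 genes of chromosome 11, and coding exon 3 of Cx3cl1 reaches 997 bases.

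The coding sequences were short. The median was 355.5 bases in the CC class (258 to 495) and 345 in the CXC class (282 to 741), against 1158 over all protein-coding genes (quartiles 753 and 1932). The shortest CC coding sequence was that of Ccl1, a T cell attractant, and the longest that of Ccl27a. In the CXC class Cxcl10 was the shortest. These ranks depend on the transcript: with the longest coding sequence Ccl1 had 279 bases and Ccl5, with 276, was shorter. Ccl25 then had 687, more than Ccl27a, and Cxcl10 had 297, more than the 291 of Cxcl1. The membrane-bound ligands were the longest of all, with 741 bases for Cxcl16 and 1188 for Cx3cl1. Cx3cl1 held 997 of these in coding exon 3, and Cxcl16 held 408 in coding exon 4. Ccl2 had 447 bases, 253 of them in coding exon 3, where its cluster neighbours Ccl7, Ccl11 and Ccl8 had 106 each.

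The 3' UTR, the part after the stop codon, near whose end 3' libraries read, was shorter in the CC than in the CXC models. Its median was 393 bases in the 23 CC genes that had one (quartiles 231 and 751) and 1130 bases in the 12 CXC genes (quartiles 761.25 and 1517). Over 20791 protein-coding genes it was 943 bases (quartiles 347 and 2027). The ranges of the classes overlapped, from 21 to 3293 bases in CC and from 268 to 5188 in CXC genes. Counting 0 for models that end at the stop codon, 24 of 44 members had under 500 bases (54.5%), against 35.0% of protein-coding genes. On chromosomes 17 of 37 members had under 500 bases (45.9%), namely 15 of 23 CC genes, 1 of 12 CXC genes and Xcl1. The rest of the 24 were the members on scaffolds, most of which end at the stop codon.

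By role, the CCR2 ligands were all short: 165 bases for Ccl8, 167 for Ccl12, 275 for Ccl2 and 435 for Ccl7. In the second cluster of chromosome 11 Ccl5 had 199 bases, Ccl4 302 and Ccl3 409. Their neighbours Ccl6 and Ccl9, which draw myeloid cells, had 943 and 2465 bases, so short and long 3' UTRs stood side by side in 1 cluster. The eotaxins had 644 (Ccl11) and 858 bases (Ccl24), and the model of Ccl26 had none. The CCR4 ligands differed widely, with 183 for Ccl17 and 1813 for Ccl22.

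The gut and mucosal ligands had 505 bases (Ccl25), 1050 (Ccl20) and 3293 (Ccl28), the last being the longest of the CC class. For Ccl25 the transcript with the longest coding sequence had 139 bases. The CCR7 ligands had 263 (Ccl19 on chromosome 4) and 393 bases (Ccl21a and Ccl21b on chromosome 4 and 1 model of Ccl21c). Ccl27a and Ccl27b, both on chromosome 4, had 31 and 21, the lowest among models with a 3' UTR. The listed CXCR2 ligands ran from 592 (Cxcl1) over 645 (Cxcl3), 1111 (Cxcl5) and 1494 (Cxcl2) to 1586 (Cxcl15). The CXCR3 ligands had 996 (Cxcl10) and 2452 bases (Cxcl9). Cxcl12 had 5188, the longest of all members, and Cxcl13 had 800. The remaining CXC genes were Cxcl14 with 1149 bases, Cxcl16 with 1421 and Cxcl17 with 268. Cx3cl1 had 1871 bases and Xcl1 141.

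**Figure D3:**
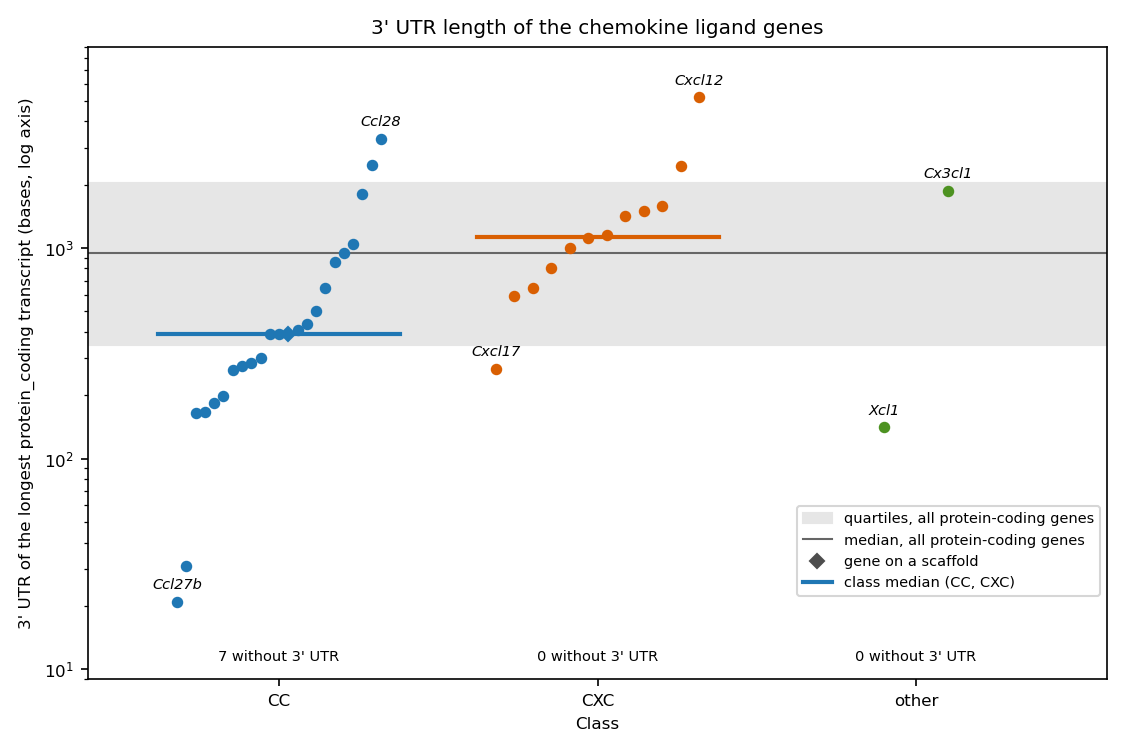
3' UTR of the longest protein_coding transcript (y axis, bases, log scale) for each ligand gene by class, with class medians as lines and the median and quartiles of all protein-coding genes in grey. CC genes centre on 393 bases and CXC genes on 1130, and 7 CC models have none.

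Of the 38 symbols, 5 (13.2%) stood on more than 1 gene identifier, against 0.111% of 21674 protein-coding symbols, or 24 in all. They were Ccl19, Ccl21a, Ccl21b and Ccl21c with 2 each and Ccl27a with 3, which makes 11 identifiers. These symbols are those of the deposited annotation, and 5 of the 7 scaffold identifiers carry another symbol in GENCODE M21. There Ccl21b has 3 identifiers, Ccl19, Ccl21a and Ccl27 have 2 each, and Ccl21c and Ccl27a have 1, so that 4 symbols stand on more than 1. All 5 are CC ligands, and all belong to the families of the chromosome 4 cluster. The additional copies lay on the scaffolds GL456350.1 (Ccl21b, Ccl21c), JH584293.1 (Ccl27a, Ccl21c) and JH584294.1 (Ccl27a, Ccl19, Ccl21a). These 7 genes are 15.9% of the members, against 0.355% of all protein-coding genes on scaffolds. The symbol Ccl21c was found on scaffolds alone. On JH584294.1 Ccl27a, Ccl19 and Ccl21a stood on the plus, minus and minus strand, with gaps of 98752 and 16908 bases. On chromosome 4 Ccl27b, Ccl19 and Ccl21a had the same strands, with gaps of 98526 and 16282 bases.

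Copies of Ccl21 shared their coding length, and those of Ccl19 and Ccl27a did not. Every Ccl21 model, 6 in all, had 402 coding bases in 4 exons. The 3' UTR was 393 bases in Ccl21a and Ccl21b on chromosome 4 and in Ccl21c on GL456350.1, and 0 in the other 3. Ccl19 had 351 coding bases on chromosome 4 and 327 on JH584294.1, and Ccl27a had 495, 408 and 390. Of the 7 ligand models on scaffolds 1 had a 3' UTR, compared with 15 of 77 protein-coding genes on scaffolds (19.5%) and 96.1% of those on chromosomes. The single member on a chromosome that ended at its stop codon was Ccl26.

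On chromosome 4 the Ccl21 coding sequences differed at 2 of 402 bases. Counted from the A of the start codon in Ccl21a, the differences from Ccl21b were T84A and C194T. The stretches below show both, with the differing base in capitals. The products of this family are known in a serine and a leucine form.
Ccl21a, first: agtgatggagggggTcaggactgctgcctt
Ccl21b, first: agtgatggagggggAcaggactgctgcctt
Ccl21a, second: gcaatcctgttctCaccccggaagcactct
Ccl21b, second: gcaatcctgttctTaccccggaagcactct
The first stretch lies at chr4:42773732-42773761 on the minus strand in Ccl21a and at chr4:42255924-42255953 on the plus strand in Ccl21b, within 1 exon each. The second spans an exon junction, at chr4:42773527-42773650 and chr4:42256035-42256158. T84A falls on base 3 of codon 28 and C194T on base 2 of codon 65. The genes Gm10591, Gm13304 and Gm21541, which the name rule leaves out, lie in the same cluster and had the coding sequence of Ccl21b without a difference.

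Whole transcripts were then searched for stretches of 90 bases, about the length of a read, that occur in transcripts of other genes. Of 35 members searched, 5 had such a stretch and 30 had 0, while 24.5% of 21343 protein-coding genes searched the same way had one. Ccl21a shared 428 of 781 (54.8%), with Gm21541, Gm13304, Ccl21b and Gm10591. Ccl27a shared 373 of 752 (49.6%), namely 201 with Gm13306, 172 with Gm20878 and 46 with Ccl27b. All of these partners are genes of the deposited annotation. Ccl19 shared 308 of 684 (45.0%), but with M21 genes such as Gm2564 and the pseudogene Ccl19-ps3, to which 0 records of the deposited annotation were matched. Cxcl2 and Cxcl3 shared 21 stretches, 1.19% and 2.27% of theirs. Copies on scaffolds were not searched, nor were the transcripts of Ccl21b and Ccl27b, whose ends differ between the releases. Ccl21b and Ccl27b are partners of searched members above, so 5 of 35 leaves out members that share stretches. It is not read as a lower share than 24.5%. The effect on read counts was not analysed here.

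Beyond these copies, neighbours in a cluster resembled each other in part. Coding sequences were aligned end to end, and identity was the share of identical bases among all aligned columns, gaps included. Cxcl2 and Cxcl3 were 87.8% identical, Cxcl1 and Cxcl2 75.7%, and Cxcl1 and Cxcl3 72.6%. Cxcl5 and Cxcl15, in the same cluster and with the same codons before the pair, had lower values, and Cxcl5 reached 49.0% with Cxcl1. There 114 of 402 aligned columns were gaps and 91 were mismatches. The coding sequences differ in length, with 399 bases in Cxcl5, 504 in Cxcl15 and 291 in Cxcl1, so part of the lower identity is length. Ccl27a and Ccl27b were 69.1% identical, but 132 of their 495 aligned columns were gaps and only 21 were mismatches. Ccl3 and Ccl4 were 68.4% identical, with 12 gap columns and 78 mismatches in 285 columns. Ccl7 and Ccl11 were 66.3% identical, and Ccl6 and Ccl9 64.8%. The 37 CC pairs within a cluster had a median of 49.5% (42.0% to 99.5%). The 216 other CC pairs, those with lone genes included, had 47.3% (36.0% to 57.2%). The 11 CXC pairs within a cluster had a median of 46.2% (36.5% to 87.8%) and the 55 others 46.1% (27.8% to 54.0%). The ranges overlapped in both classes, and the difference was not tested.

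**Figure D4:**
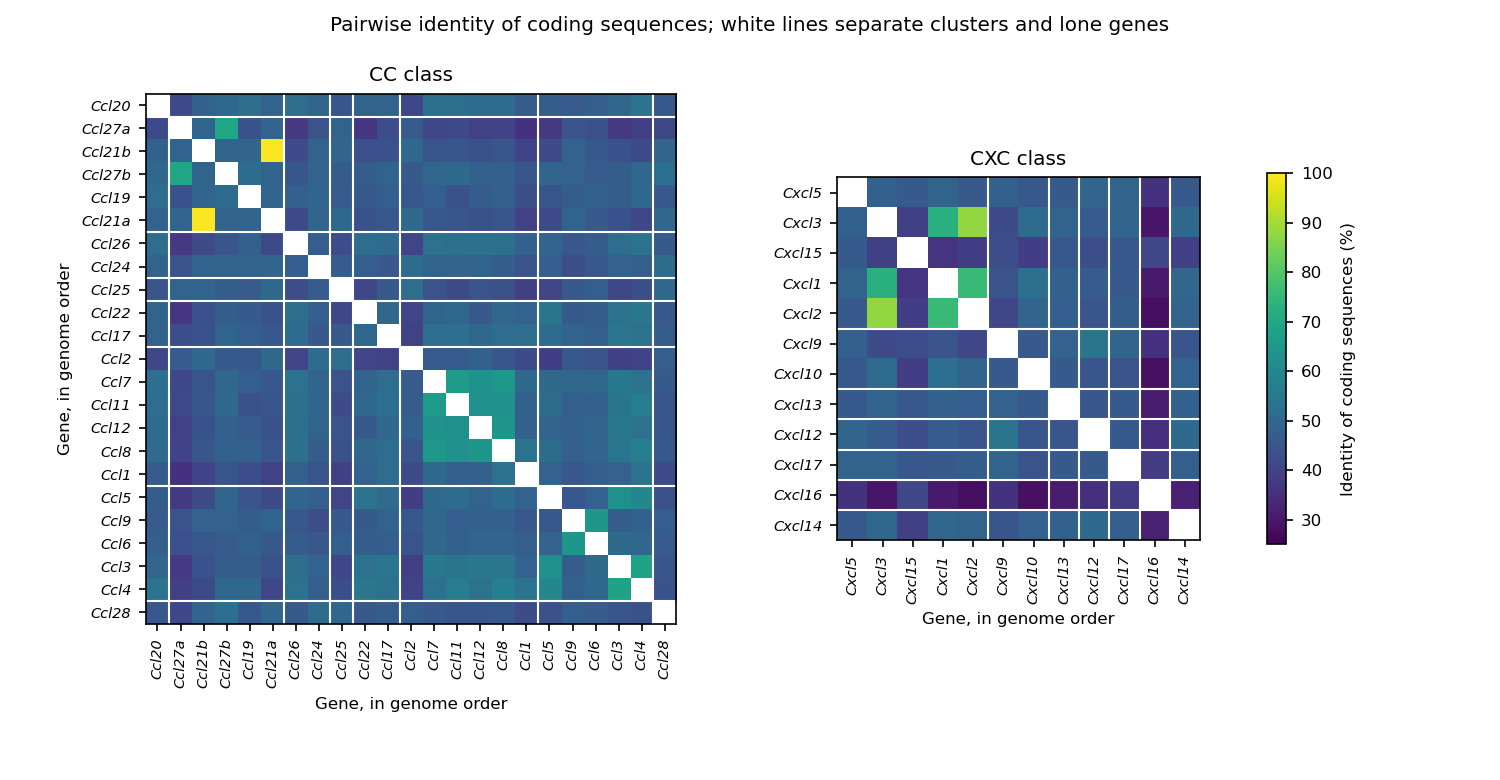
Identity (%, colour) of coding sequences between all pairs of CC genes (left) and CXC genes (right) on chromosomes, in genome order, with white lines between clusters and lone genes. Bright blocks include Ccl21a with Ccl21b (99.5%), Cxcl1, Cxcl2 and Cxcl3 (72.6% to 87.8%), and Ccl7, Ccl11, Ccl12 and Ccl8 (62.5% to 66.3%). Bright single pairs include Ccl27a with Ccl27b (69.1%) and Ccl3 with Ccl4 (68.4%).

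The last 500 exonic bases of 0 of 44 members touched an exon of another gene on the same strand, against 0.963% of protein-coding genes. With either strand counted there were 2 members, against 8.72%. They were Xcl1, with 75 bases on the long non-coding RNA gene Gm20743, and Ccl27a, with 8 bases on Il11ra1, which encodes a receptor for interleukin 11. Farther from its 3' end, Cxcl16 shared 552 exonic bases with Zmynd15 on the opposite strand.

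The receptors of these ligands had another build. All 22 listed genes, 18 typical and 4 atypical receptors, were found. Each held over 90% of its coding bases in 1 exon, which 0 of 44 ligands and 18.3% of protein-coding genes did. A lone coding exon was found in 15 receptors and in 16.2% of protein-coding genes. Their coding sequences were of nearly 1 length, from 969 bases (Xcr1) to 1137 (Ccr7 and Ackr2), with a median of 1080. The 3' UTR had a median of 1338.5 bases and was shortest in Cxcr1, with 21. Of the receptors, 0 of 22 lay within 1000000 bases of a ligand gene. The share over all protein-coding genes is not given here, so the count is not read as a trait of the receptors. Chromosome 9, which holds no ligand, had several receptors, among them Ccr9, the receptor for Ccl25 (123678439 to 123784330), and Ccr2 (124101950 to 124113557). Ccr7, the receptor for Ccl19 and Ccl21, lay on chromosome 11 (99144196 to 99155077) and Cxcr4, the receptor for Cxcl12, on chromosome 1 (128588199 to 128592293).

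Of the CXCR3 ligand list, Cxcl9 and Cxcl10 were found and 0 records were matched to Cxcl11. GENCODE M21 lists Cxcl11 as a polymorphic pseudogene, 92359544 to 92365485 on chromosome 5, beside Cxcl10. Of 47 M21 records with a matching symbol, 44 were in the deposited annotation, and these were the 44 typed as protein-coding. The remaining 3 were Cxcl11, Ccl19-ps1 and Ccl19-ps3. Pf4 and Ppbp, which lie in the CXCR2 ligand cluster, had 3 exons each, with 318 and 342 coding bases and 3' UTRs of 123 and 656 bases.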

How the data were processed

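The members and gene lists were chosen with earlier results of these data known. The deposited file is the authors' gene annotation, not a table of counts. It holds gene models of release GENCODE M23, Ensembl 98, on GRCm38 (per the file headers), and its values are start and end coordinates in bases. The tools named by the submitters' processing notes include Seurat 4.0.3, Cell Ranger 6.0.1 and R 4.1.0. The alignment and counting settings are not given in the sources used here, and sequencing depth was not analysed here. For each gene the protein_coding transcript with the most exonic bases was taken, and coding length includes the stop codon. Of 21700 protein-coding genes, 21698 had such a transcript. A cluster joins members at most 1000000 bases apart. Coding sequences came from GENCODE M21 transcripts with the same coding coordinates, aligned globally with Biopython 1.88 (match 1, mismatch -1, gap opening -3, gap extension -0.5). Protein sequences were not used here. Genes were named by rule: cluster ends, extremes per class, symbols on several identifiers, overlaps, lone genes and list members. On a made annotation of 1000 genes, exon number, coding length and 3' UTR were recovered for 1000. Python 3.11.15 and NumPy 2.4.6 were used. Alternatives changed the transcript, the gap, the window and the strand.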

Additional observations from a re-analysis of the deposited data

How the results depend on the processing

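The median 3' UTR of the CC class, 393 bases, stayed the same with the longest coding sequence and with 1 gene per symbol. It was 401 bases with the longest transcript of any type and 280 bases when models ending at the stop codon counted as 0. The median of the CXC class, 1130 bases, was 955.5 with the longest coding sequence, where Cxcl2 fell to 734 bases and Cxcl10 to 729, and 1421 with the longest transcript of any type. Under the latter, 10 members, 5 of them CXC, lost their value because that transcript had no coding sequence. In each setting the CXC median was above the CC median. The median coding length of the CC class was 333 bases with 1 gene per symbol, against 355.5. The number of clusters, 10, was 9 with a largest gap of 100000 bases, 10 with 500000, 8 with 2000000, where the chromosome 11 clusters and those of the CXCR2 and CXCR3 ligands joined, and 7 on chromosomes alone. With the extent of the longest protein_coding transcript, an alternative chosen after seeing the data, it was 10. With M21 symbols, also chosen after seeing the data, 4 symbols in place of 5 had more than 1 identifier. The share of neighbours on the same strand stayed between 80% and 81.8%. Members whose 3' end touched another gene numbered 0 with windows of 300 and 1000 bases and 2 with either strand. No paired analysis was possible because the annotation has no sample columns. Gene models have no depth.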

Other observations

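The gene record of Ccl1, a T cell attractant, spanned 129034 bases, whereas its longest coding transcript spanned 3154 (82176659 to 82179812 on chromosome 11, minus strand). The longest transcript under the same identifier was a long non-coding RNA with 11 exons and 2126 exonic bases. With the span of the coding transcript, the distance to Ccl5 is larger than the one given above.

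Of the 44 members, 42 had the same start and end in GENCODE M21. Ccl21b on chromosome 4 ran from 42255767 to 42256432 in M21 and from 42255693 to 42256825 in the deposited annotation. Ccl27b ended at 42656005 in M21 and at 42655998 in the deposited annotation. Ccl25, the small bowel ligand, had 10 transcripts, of which the one with the longest coding sequence had 8 exons, 687 coding bases and a 3' UTR of 139 bases, against 6 exons, 435 coding bases and 505 bases in the transcript described above. Ccl1, Ccl21b, Ccl25 and Ccl27b were chosen here with their values in view.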
